A study of Mus musculus with 27 samples.

Results

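Between gestational days (d) 12 and 15 the whole fetal brain passes from a tissue made mostly of dividing progenitors to one in which neurons accumulate, and the same days were profiled in AKR/J and in B6.Cg-Cav1tm1Mls/J (Cav1-null) mice. For each gene, the early change was the level on d15 over the level on d12, and the quantity described here was the AKR/J change minus the Cav1-null change on the log2 scale, called the early interaction below. A positive value meant that the gene changed more upward (or less downward) in AKR/J than in Cav1-null brains. The interaction was taken from 12 of the 27 libraries of the series, with 3 libraries of each strain on each day, and 21774 of the 55416 genes in the count table had enough reads to be tested.

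AKR/J is an inbred strain, and the Cav1-null mice carry a germline deletion of Cav1, the gene of the caveolae coat protein caveolin 1, on a C57BL/6J background. Strain background and Cav1 genotype therefore differ together between the groups and cannot be told apart. Each library was made from polyadenylated RNA of one dissected whole fetal brain, the day of the vaginal plug was counted as day 1, and all fetuses were labelled female. C57BL/6J brains and the d17 brains of the series did not enter this fit. C57BL/6J is given as levels only, and AKR/J d17 enters 1 further comparison at the end.

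As background, the embryonic brain is built from radial glia, which divide and give rise to intermediate progenitors and neurons, and later to astrocytes and oligodendrocytes. Newborn neurons first express cytoskeletal genes such as Dcx, then ion channels, transmitter receptors and the proteins that load and release synaptic vesicles. Embryonic red cells are made in the yolk sac and express embryonic globins, which are replaced by adult globins when the fetal liver takes over.

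The 12 libraries held 26846313 to 35743241 reads on genes. Levels are given as CPM, read counts per 1000000 reads of the library, after TMM scaling (trimmed mean of M values), and a gene without reads in a library could still have had up to 3 counts there, or 0.0793 to 0.153 CPM, by counting error alone. Cav1 stood at 9.25 to 34.2 CPM in the 6 AKR/J libraries and at 0 to 0.212 CPM in the 6 Cav1-null libraries, as the strain labels say. The brain markers Dcx and Tubb3 were present in every library. The label female did not hold for 3 of the 27 libraries, all among the 12 used here. Cav1-null d12 replicate 2 had 429 CPM on 4 Y-linked genes and 3.7 CPM of Xist, AKR/J d12 replicate 1 had 50.7 CPM on the Y-linked genes beside 2770 CPM of Xist, and AKR/J d15 replicate 3 had 3.29 CPM of Xist and no Y-linked reads. The other 24 libraries had 2430 to 6350 CPM of Xist and at most 0.508 CPM on the Y-linked genes. AKR/J d12 replicates 1 and 3 also stood apart, with scaling factors of 0.677 and 0.688 against 1.02 to 1.15 in the 9 libraries of the other 3 groups. Counts are therefore also given without these libraries.

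The early change differed between AKR/J and Cav1-null in 3191 of 21774 genes, or 14.7%, at an adjusted p under 0.05 (edgeR quasi-likelihood test, Benjamini-Hochberg adjustment over all genes tested, used for every adjusted p below). Of these, 1712 genes (7.86% of those tested) were called higher in the interaction and 1479 (6.79%) were called lower. Without the 3 libraries that departed from the label female the count was 192 (153 higher and 39 lower), with 4546 genes at an unadjusted p under 0.05 against 6576 (30.2%) in all 12 libraries. Without AKR/J d12 replicates 1 and 3, which left 1 AKR/J d12 library that was assumed to vary like the other groups, it was 2146 (1536 higher and 610 lower). Single libraries also carried weight, since the count was 7275 without AKR/J d12 replicate 2 and 1581, 1855 and 1985 without Cav1-null d15 replicates 3, 2 and 1. It was 1624 and 2088 without AKR/J d15 replicates 3 and 1, and 1883 without Cav1-null d12 replicate 1. The genes called lower numbered 921 and 963 without AKR/J d12 replicates 1 and 3 in turn. Scaling by library sizes alone gave 2882 higher and 852 lower calls, with the median interaction of all genes at 0.52 against 0.07.

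Most genes called in the interaction had a called change in AKR/J and none in Cav1-null. In the same fit the AKR/J change passed the test in 8306 genes (38.1%, with 20.3% higher and 17.8% lower on d15) and the Cav1-null change in 2104 genes (9.66%, with 5.06% higher and 4.6% lower). Without AKR/J d12 replicates 1 and 3 the AKR/J and Cav1-null counts came much closer to each other. That fit held the same Cav1-null libraries and 1 AKR/J d12 library. Counts of calls therefore do not measure how far each strain changed. The Cav1-null count was 3949 without AKR/J d12 replicate 2, 886 and 1065 without Cav1-null d12 replicates 1 and 2, and 1004, 965 and 977 without Cav1-null d15 replicates 1, 2 and 3. Of the 1712 genes called higher, 1506 rose in AKR/J, and 1203 of those had no called change in Cav1-null, while 273 rose in both strains. Of the 1479 genes called lower, 1386 fell in AKR/J, and 1345 of those had no called change in Cav1-null. The change ran in opposite directions in 42 genes, with 30 rising in AKR/J and falling in Cav1-null and 12 the reverse. The median change of the genes called higher was 1.15 in AKR/J and 0.06 in Cav1-null (log2), and that of the genes called lower was -1.70 and 0.11.

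**Figure D1:**
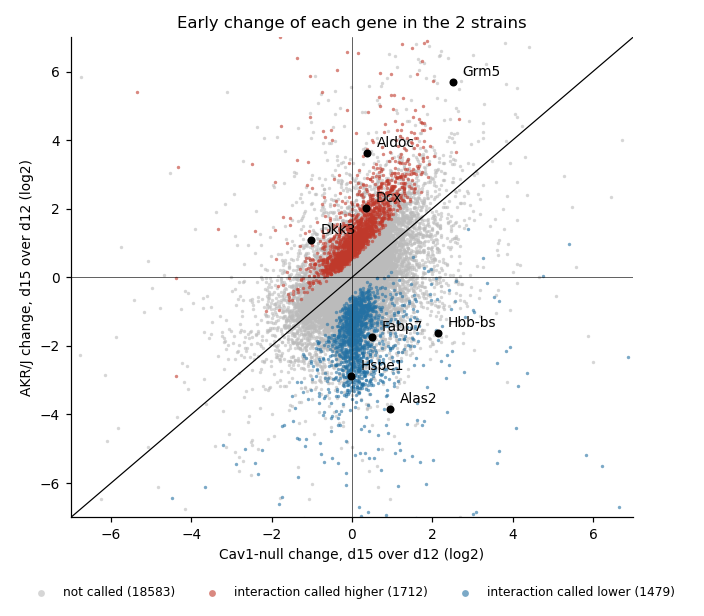
Early change of each gene (log2, d15 over d12) in Cav1-null on the x axis and in AKR/J on the y axis, with the 1712 genes called higher in red, the 1479 called lower in blue and the others in grey. The line marks equal change, the axes end at 7 (83 genes lie outside), and the called genes lie above and below zero on the AKR/J axis while they centre near zero on the Cav1-null axis.

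More genes differed between the strains on d12 than on d15. AKR/J and Cav1-null differed in 6909 genes (31.7%, with 14.9% higher and 16.8% lower in AKR/J) on d12 and in 1044 genes (4.79%) on d15. The 2 counts were 4273 and 2840 without AKR/J d12 replicates 1 and 3. The d15 count was 2501 without AKR/J d12 replicate 2, 593 and 522 without AKR/J d15 replicates 2 and 3, and 515, 452 and 453 without Cav1-null d15 replicates 1, 2 and 3. Among the genes called higher, 1511 were lower in AKR/J than in Cav1-null on d12, and 1445 of these did not pass the test on d15. Among the genes called lower, 1338 were higher in AKR/J on d12, and 1305 of these did not pass on d15. These contrasts share the 12 libraries with the interaction and describe where it came from. Across 23307 genes, the mean Pearson correlation of log2(CPM + 1) between AKR/J and Cav1-null libraries was 0.945 on d12 and 0.978 on d15. It was 0.979 between AKR/J d15 and Cav1-null d12. Pairs of libraries spanned 0.970 to 0.984 in both of the comparisons with AKR/J d15, so their means cannot be ranked.

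The gene with the smallest p in the interaction was Grm5, the metabotropic glutamate receptor mGluR5 (chr7:87233376-87784594, GRCm39). It stood at 0.907, 0.658 and 0.711 CPM in AKR/J on d12 and at 40.8, 34.9 and 45.5 CPM on d15. In Cav1-null it stood at 15.2, 15.7 and 13.6 CPM on d12 and at 80.7, 85.8 and 81.0 CPM on d15. Both strains rose and no 2 of the 4 groups overlapped, but AKR/J rose by 5.69 ± 0.18 and Cav1-null by 2.51 ± 0.14 (log2 ± SE). The interaction was 3.18 ± 0.22 (adjusted p = 4.6e-05). On d15 Grm5 was still lower in AKR/J, by 1.06 on the log2 scale (adjusted p = 0.00044). In C57BL/6J it stood at 13.6, 19.2 and 2.22 CPM on d12, so that 1 of 3 libraries was between the other 2 strains, and at 73.2, 84.0 and 113 CPM on d15.

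Of 25 glutamate receptor genes tested, 9 were called higher and none lower, and the median interaction of the 25 was 0.82 against 0.07 over all genes tested. The NMDA receptor subunits Grin2b (2.68 ± 0.37), Grin3a (1.79 ± 0.39), Grin2d (1.48 ± 0.34) and Grin1 (1.48 ± 0.40) were among them, with the AMPA subunit Gria1 (1.80 ± 0.27), the kainate subunits Grik3 (1.18 ± 0.34) and Grik1 (1.00 ± 0.23), and the delta receptor Grid1 (1.64 ± 0.34). The 25 genes took 0.0417%, 0.0778% and 0.0374% of reads in AKR/J d12 against 0.136% to 0.281% in the other 9, and AKR/J d12 did not overlap with them.

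Genes of the presynaptic terminal gave the highest share of calls among the brain lists, with 18 of 36 called higher, 1 called lower and a median of 0.90. Sv2c, a vesicle glycoprotein, led them at 2.69 ± 0.75 (adjusted p = 0.031), followed by Sncb (1.89 ± 0.35), the small GTPases Rab3c (1.83 ± 0.30) and Rab3a (1.67 ± 0.24), the vesicle phosphoprotein Syn2 (1.80 ± 0.33), Sv2a (1.77 ± 0.32) and the calcium sensor Syt1 (1.73 ± 0.26). Sv2c was uneven between libraries. It stood at 1.98, 3.59 and 4.67 CPM in AKR/J d12, at 19.3, 25.5 and 52.4 CPM in AKR/J d15, at 5.03, 4.87 and 19.2 CPM in Cav1-null d12 and at 15.7, 14.9 and 10.2 CPM in Cav1-null d15, so that Cav1-null d12 replicate 3 lay above all Cav1-null d15 libraries.

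On the postsynaptic side 15 of 32 genes were called higher and none lower, with a median of 0.81. Camk2b, a subunit of the calcium/calmodulin kinase of the synapse, stood at 3.63, 8.79 and 6.76 CPM in AKR/J d12 against 50, 54.5 and 53.2 CPM in Cav1-null d12. On d15 it reached 95.3, 75.8 and 101 CPM in AKR/J and 158, 157 and 136 CPM in Cav1-null. The strains did not overlap on either day, and the interaction was 2.23 ± 0.33 (adjusted p = 0.0033). The scaffold gene Dlg2 (1.58 ± 0.21) and the adhesion genes Nrxn2 (1.33 ± 0.30), Nrxn3 (0.98 ± 0.25) and Nlgn3 (1.12 ± 0.24) were called with it.

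Voltage-gated channel genes were called higher in 12 of 36 cases and lower in none, with a median of 0.62. Scn3b, a regulatory subunit of sodium channels, stood at 19.8, 26.1 and 22.7 CPM in AKR/J d12 and at 92.7, 110 and 117 CPM in Cav1-null d12, without overlap. On d15 its ranges overlapped, since AKR/J libraries spanned 124 to 171 CPM and those of Cav1-null 162 to 177 CPM. The interaction was 1.96 ± 0.22 (adjusted p = 0.00089). Among potassium channels, Kcnh1 (1.76 ± 0.41), Kcna2 (1.44 ± 0.39) and Kcnd3 (1.41 ± 0.24) were called higher.

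Of 30 genes of GABA neurons and GABA-A receptors, 10 were called higher and none lower, with a median of 0.84. Slc32a1, the vesicular GABA transporter, stood at 6.06, 9.18 and 7.37 CPM in AKR/J d12 and at 20.4, 22.6 and 16.3 CPM in Cav1-null d12. By d15 it stood at 16.5, 16.5 and 30.3 CPM in AKR/J and at 17.2, 18.2 and 10.8 CPM in Cav1-null, so that the strains overlapped. Its interaction was 1.77 ± 0.39 (adjusted p = 0.013). Gad2, which makes GABA (1.12 ± 0.28), the receptor subunit Gabra3 (1.36 ± 0.19) and the chloride exporter Slc12a5 (0.91 ± 0.23) were also called higher.

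These 5 lists of synapse, channel and GABA genes do not include the cortical projection neurons below. Over them together, 64 of 159 genes (40.3%) were called higher beside 7.86% of all genes, and 1 was called lower. Of the protein-coding genes alone, 1665 of 15765 were called higher. Among those with the longest transcripts, described below, the share called higher was 16.6%. All 64 rose in AKR/J, and 27 of them also rose in Cav1-null. On d12 63 were lower in AKR/J than in Cav1-null, and on d15 7 passed the strain test. Of all 1712 genes called higher, 88% rose in AKR/J, 15.9% rose in Cav1-null and 88.3% were lower in AKR/J on d12. Over all genes tested these shares were 20.3%, 5.06% and 16.8%. The interaction that picked the 64 contains these contrasts, so the counts follow in part from that choice. With an offset for the GC content and length of each transcript, 32 of the 159 genes were called higher and 5 lower. The count thus depended on this correction. Without AKR/J d12 replicates 1 and 3 the counts were 47 and 3, and without the 3 libraries that departed from the label female they were 12 and 0. In bulk brain tissue, fewer cells of a type and less RNA per cell cannot be told apart.

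**Figure D2:**
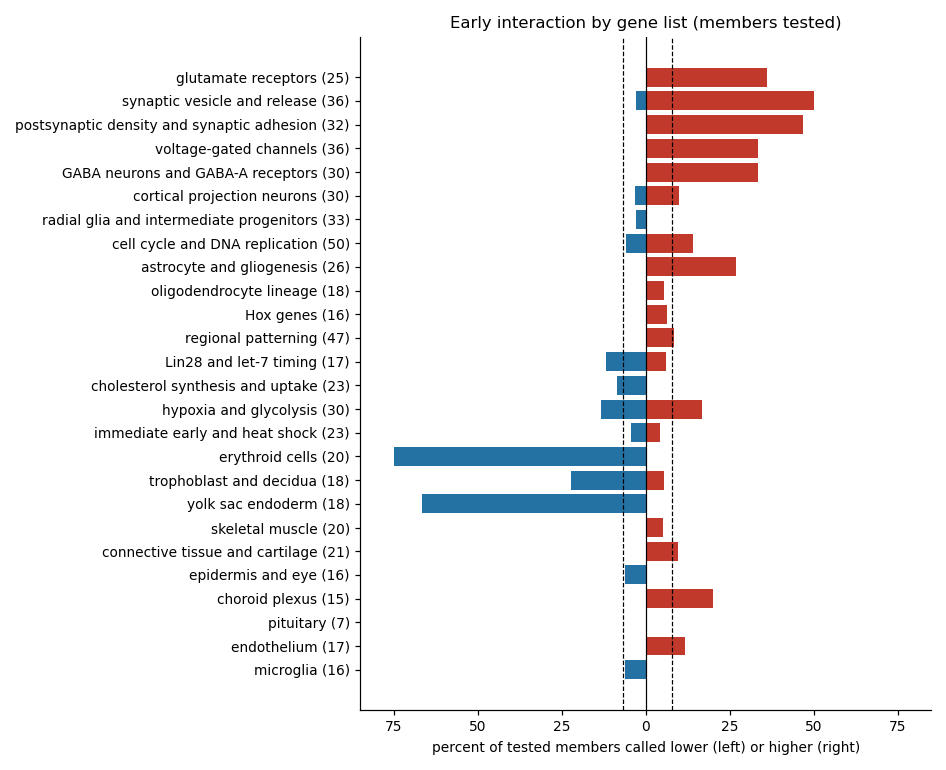
Percent of tested members of each gene list called higher (red, to the right) or lower (blue, to the left) in the early interaction, with the number tested in brackets. Dashed lines mark the 7.86% and 6.79% of all genes called higher and lower, and the presynaptic, postsynaptic, glutamate receptor, channel and GABA lists reach furthest to the right and the erythroid and yolk sac lists furthest to the left.

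Dcx, the microtubule protein of migrating neurons, stood at 326, 413 and 395 CPM in AKR/J d12 and at 1420, 1550 and 1330 CPM in Cav1-null d12. On d15 it reached 1630, 1320 and 1780 CPM in AKR/J and 1690, 1790 and 1880 CPM in Cav1-null. AKR/J d12 lay below every other group, and the 2 strains overlapped on d15. The interaction was 1.67 ± 0.24 (adjusted p = 0.0032), and Tubb3, the neuronal beta-tubulin, was called at 1.51 ± 0.32. Of 14 brain tissue markers tested, 2 were called higher and 1 lower, beside 7.86% and 6.79% of all genes, with a median of 0.52. Without the 3 libraries that departed from the label female, 0 were called higher and 0 lower. Among 30 genes of cortical projection neurons 3 were called higher, a share near the 7.86% of all genes. They were the actin-binding Ablim3 (2.95 ± 0.24), Tshz2 (1.99 ± 0.29) and the layer regulator Bcl11b (1.43 ± 0.43). Neurod1, a factor of newly formed neurons, was the member called lower, at -0.80 ± 0.25. The median of this list was 0.21.

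Astrocyte and gliogenesis genes had a median interaction of 1.13, with 7 of 26 called higher, beside 7.86% of all genes, and none lower. Aldoc, the brain aldolase of astrocytes (chr11), stood at 4.70, 3.98 and 2.29 CPM in AKR/J d12 and rose to 44.6, 33.3 and 61.9 CPM on d15. Cav1-null brains had 39.0, 30.8 and 30.4 CPM on d12 and 53.6, 40.6 and 33.6 CPM on d15. AKR/J d12 was thus the group that stood alone, and the other 3 groups overlapped. The interaction was 3.23 ± 0.39 (adjusted p = 0.0013). Others were the extracellular proteoglycan gene Bcan (2.50 ± 0.56), the thyroid hormone and organic anion carrier Slco1c1 (1.97 ± 0.59), the glutamate transporter Slc1a3 (1.72 ± 0.22), Aldh1l1 (1.72 ± 0.52) and the gliogenic factor Nfia (1.11 ± 0.29). Without the 3 libraries that departed from the label female 3 astrocyte genes were called. In the oligodendrocyte list 1 of 18 was called higher, a share near that of all genes, Cnp, a myelin enzyme, at 1.18 ± 0.27.

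Several further genes with the largest positive interactions share an AKR/J d12 level far below the other groups. Slc15a2, the brain peptide transporter PEPT2, stood at 1.69, 2.80 and 0.864 CPM in AKR/J d12, at 27.6, 28.6 and 31.6 CPM in AKR/J d15, and between 20.4 and 46.9 CPM in all 6 Cav1-null libraries (interaction 3.44 ± 0.46, adjusted p = 0.0023). Kcnk9, a leak potassium channel, stood at 1.28, 0.823 and 2.44 CPM in AKR/J d12 and between 11.1 and 40.6 CPM in the other 9 libraries (3.44 ± 0.61, adjusted p = 0.0058). Atp2b3, a plasma membrane calcium pump, stood at 0.536, 0.987 and 0.610 CPM in AKR/J d12 and at 7.85, 8.29 and 12.1 CPM in Cav1-null d12 (3.08 ± 0.36, adjusted p = 0.0013). Sprn, which encodes the prion-like protein Shadoo (2.92 ± 0.33), Tmem130 (2.85 ± 0.42) and Rlbp1, a retinaldehyde-binding protein (2.83 ± 0.56), completed this group.

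Choroid plexus genes were called higher in 3 of 15 cases, beside 7.86% of all genes. Kcne2, a potassium channel subunit of choroid plexus epithelium, stood at 0.330, 0.527 and 1.02 CPM in AKR/J d12 and at 13.4, 8.19 and 13.4 CPM in AKR/J d15. In Cav1-null it stood at 8.78, 7.25 and 24.7 CPM on d12 and at 12.2, 16.0 and 14.3 CPM on d15, so that these groups overlapped. Its interaction of 4.12 ± 0.66 (adjusted p = 0.0046) was the largest positive value among genes whose log2 CPM averaged 3 or more. Tmem72 had no reads in any AKR/J d12 library and 5.72, 4.74 and 5.47 CPM in AKR/J d15, a rise of at least 42.5-fold over a floor of 3 counts per library. In Cav1-null d12 it was uneven, at 0.551, 0.0612 and 3.41 CPM. Enpp2 (1.58 ± 0.37), which encodes autotaxin, was the other member.

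Many progenitor and cell cycle genes fell in both strains. Of 33 genes of radial glia and intermediate progenitors, 17 fell in AKR/J and 19 in Cav1-null, beside 17.8% and 4.6% of all genes, and 1 was called in the interaction, beside 14.7%. The median of the list was 0.35 in the interaction and -0.95 in the Cav1-null change. The gene called was Fabp7, the brain lipid-binding protein of radial glia, whose values have the opposite sign to both medians. It stood at 2220, 753 and 2660 CPM in AKR/J d12, at 618, 484 and 615 CPM in AKR/J d15, at 575, 757 and 616 CPM in Cav1-null d12 and at 938, 851 and 917 CPM in Cav1-null d15 (-2.26 ± 0.48, adjusted p = 0.011). AKR/J d12 replicate 2 lay inside the Cav1-null range and the other 2 libraries of its group lay well above it.

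Of 50 cell cycle genes, 42 fell in AKR/J and 44 in Cav1-null, beside 17.8% and 4.6% of all genes, and 10 were called in the interaction, beside 14.7%. The share called lower was near the 6.79% of all genes, and the median was 0.26. These 7 higher and 3 lower calls became 1 and 1 without AKR/J d12 replicates 1 and 3, 0 and 0 without the 3 libraries that departed from the label female, and 2 and 3 with the offset. The 7 called higher, among them Top2a (1.10 ± 0.32), Ccnd1 (1.17 ± 0.31), Tpx2 (1.07 ± 0.29) and Rrm1 (1.03 ± 0.25), all fell in Cav1-null, while of these only Ccnd1 and Mcm3 also fell in AKR/J. The 3 called lower all fell in AKR/J, and were the cyclin Ccne2 (-1.78 ± 0.36), the replication factor Gins2 (-1.09 ± 0.30) and the mitotic gene Birc5 (-1.02 ± 0.31). Lin28a, an RNA-binding protein that blocks let-7 maturation and marks early embryonic stages, stood at 7.05, 8.69 and 7.42 CPM in AKR/J d12 against 0.999, 1.53 and 1.38 CPM in Cav1-null d12, without overlap. On d15 it stood at 0.471, 0.367 and 1.31 CPM in AKR/J and at 0.314, 0.516 and 0.508 CPM in Cav1-null (-1.97 ± 0.61, adjusted p = 0.049). Its paralogue Lin28b was also called lower (-0.67 ± 0.17). Of the 17 genes of the Lin28 and let-7 list, these 2 were called lower and 1 higher, with a median of -0.01, and without AKR/J d12 replicates 1 and 3 the counts were 0 lower and 2 higher.

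**Figure D3:**
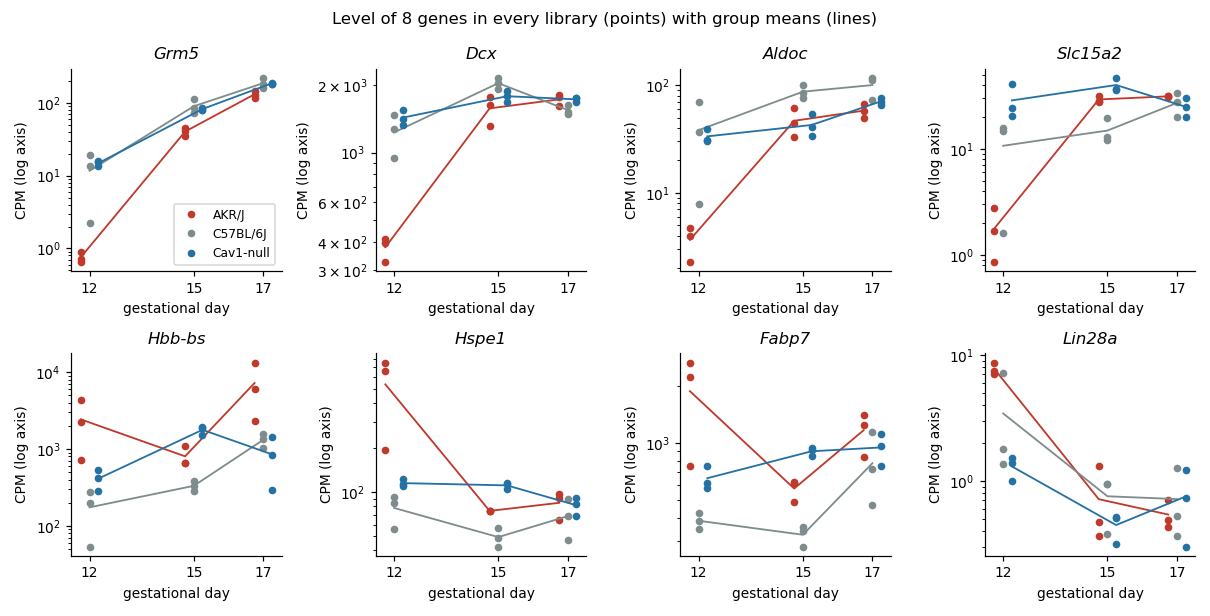
CPM on a log axis of 8 genes in every library (points, 3 per group) and group means (lines) by gestational day, with AKR/J in red, C57BL/6J in grey and Cav1-null in blue. In the upper row AKR/J d12 lies below Cav1-null d12 and comes near it on d15, and in the lower row AKR/J d12 lies above, except for 1 library of Fabp7.

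Opposite called changes in the 2 strains were rare. Dkk3, a secreted Dickkopf-family protein, rose in AKR/J from 11.5, 9.67 and 6.96 to 14.1, 28.9 and 18.9 CPM and fell in Cav1-null from 17.6, 18 and 24 to 11.5, 9.29 and 8.03 CPM (2.10 ± 0.38, adjusted p = 0.0063). Foxj1, the regulator of motile cilia (2.02 ± 0.37), Lbh (1.90 ± 0.25), the imprinted gene Magel2 (1.61 ± 0.26) and Polr2b, an RNA polymerase II subunit (1.60 ± 0.24), followed the same pattern. In the other direction Slc2a3, the neuronal glucose transporter, fell in AKR/J from 42.7, 41.9 and 39.4 to 25.2, 28.9 and 32.8 CPM and rose in Cav1-null from 18.6, 16.6 and 25.4 to 35.5, 36.9 and 32.6 CPM (-1.38 ± 0.22, adjusted p = 0.0047). Id2, an inhibitor of bHLH factors, did so as well (-2.08 ± 0.39), but its AKR/J d12 libraries were split, at 224, 88.4 and 232 CPM. The erythroid genes Sptb, beta-spectrin (-2.45 ± 0.45), and Hbb-bs, described below, were the others named.

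The largest negative interactions belonged mostly to genes that are not typical of brain cells. Of 20 erythroid genes tested, 15 were called lower, none higher, and all 20 fell in AKR/J, beside 6.79% and 17.8% of all genes called lower and falling in AKR/J. In Cav1-null 8 of them fell, 1 rose and 11 did not pass, and the median change of the list was -1.99 there against -4.97 in AKR/J. Slc4a1 (-2.41 ± 0.32) and Epb42 (-3.22 ± 0.38) were among those that fell in Cav1-null. Alas2, the first enzyme of heme synthesis in red cells, stood at 217, 112 and 388 CPM in AKR/J d12 and at 13.1, 22.6 and 15.2 CPM in AKR/J d15. In Cav1-null it stood at 29.0, 30.5 and 17.8 CPM on d12 and at 43.0, 53.5 and 49.8 CPM on d15 (-4.81 ± 0.53, adjusted p = 0.00089), so that AKR/J d12 lay above every other group. The embryonic globin Hbb-bh1 stood at 8140, 1540 and 11500 CPM in AKR/J d12 and at 38.1, 46.2 and 41.9 CPM in Cav1-null d12 (-4.65 ± 0.84). The adult globin Hbb-bs fell in AKR/J and rose in Cav1-null (-3.78 ± 0.68, adjusted p = 0.0059). Hbb-bs and Hbb-bt, and Hba-a1 and Hba-a2, are near-identical copies whose reads may be split by the counting: in AKR/J d12 Hba-a2 stood at 4.04, 1.55 and 6.10 CPM beside 3630, 2620 and 9550 CPM of Hba-a1.

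Erythroid genes took 6.92%, 3.60% and 13.7% of all reads in AKR/J d12 and 0.229% to 0.570% in the other 9, so that every AKR/J d12 library stood apart. Of the 20 members, 13 were called lower and 1 higher without AKR/J d12 replicates 1 and 3, and 5 were called lower without the 3 libraries that departed from the label female. The part of red cells or their RNA in other results was not tested. A scaling computed without the erythroid, trophoblast and yolk sac genes gave 3516 calls.

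Because the erythroid genes moved together, the 250 bases before the start of the canonical transcript (GRCm39, GENCODE M39) were searched on both strands for AGATAA, a form of the GATA factor site, for CAGATG, an E-box, and for TATAAA. The GATA form was present before 6 of 20 erythroid genes (30%), before 9.97% of the genes called lower, before 7.66% of those called higher and before 8.88% of all 21625 genes with a window. The E-box was present before 5 of 20 erythroid genes (25%) and 12.6% of all genes with a window, and the TATA form before 3 of 20 (15%) and 9.78%. Among the genes called higher and lower the E-box shares were 11% and 12.8% and the TATA shares 6.2% and 10.6%, and the motifs were counted without regard to overlap. A match is a description and no evidence of binding. Of the 5 matching erythroid genes called lower, 3 are shown, and the globin genes Hbb-bs and Hbb-bt are left out. Kcne2, the gene described above with a positive interaction, has an E-box match only. It is not offered as typical of the genes called higher, and its window is shown with the others. Each is read 5′ to 3′ on the strand of its gene, with matches to the 3 motifs in capitals, where a match on the opposite strand appears as its reverse complement. They lie at chrX:149330121-149330370 (+) for Alas2, chr11:102256107-102256356 (-) for Slc4a1, the anion exchanger of the red cell, chr2:120867554-120867803 (-) for Epb42, protein 4.2 of its membrane skeleton, and chr16:92088969-92089218 (+) for Kcne2.
Alas2: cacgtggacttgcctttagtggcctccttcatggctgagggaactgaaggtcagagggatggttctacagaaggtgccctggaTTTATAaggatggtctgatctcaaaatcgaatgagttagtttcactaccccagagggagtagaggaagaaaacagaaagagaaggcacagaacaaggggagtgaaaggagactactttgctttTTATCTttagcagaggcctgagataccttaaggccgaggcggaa
Slc4a1: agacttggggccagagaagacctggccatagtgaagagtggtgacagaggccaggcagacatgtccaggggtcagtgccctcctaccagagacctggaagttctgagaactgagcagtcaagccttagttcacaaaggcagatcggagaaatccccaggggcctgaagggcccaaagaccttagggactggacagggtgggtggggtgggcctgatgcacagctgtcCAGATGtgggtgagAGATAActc
Epb42: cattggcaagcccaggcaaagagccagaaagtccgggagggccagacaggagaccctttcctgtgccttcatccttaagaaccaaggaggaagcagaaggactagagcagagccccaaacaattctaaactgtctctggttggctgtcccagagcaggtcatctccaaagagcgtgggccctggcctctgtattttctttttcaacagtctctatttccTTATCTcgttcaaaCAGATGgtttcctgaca
Kcne2: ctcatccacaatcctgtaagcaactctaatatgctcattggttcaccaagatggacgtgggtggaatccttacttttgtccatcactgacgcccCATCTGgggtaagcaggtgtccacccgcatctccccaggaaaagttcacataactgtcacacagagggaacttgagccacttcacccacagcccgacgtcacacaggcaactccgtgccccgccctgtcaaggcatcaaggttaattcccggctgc

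Of 25 yolk sac endoderm genes listed, 18 had enough reads to be tested, and of these 12 were called lower and none higher. A gene read mainly in AKR/J d12 could pass the filter on reads through that group alone. This share is therefore partly set by the filter and is not on a par with the 6.79% of all genes called lower. Without the 3 libraries that departed from the label female, which include AKR/J d12 replicate 1, 2 were called lower, and without AKR/J d12 replicates 1 and 3 there were 9 of 21 tested. Afp, alpha-fetoprotein, stood at 1040, 135 and 15.8 CPM in AKR/J d12 and at or below 5.49 CPM in the other 9 libraries (-11.04 ± 2.19, adjusted p = 0.0085). The apolipoprotein genes Apob, with 268, 21.0 and 2.03 CPM in AKR/J d12, Apoa1, with 158, 24.7 and 4.67 CPM, and Apoa2, with 164, 7.90 and 5.23 CPM, had the same order of libraries. Fgg, a fibrinogen chain, stood at 45.9, 3.98 and 0.203 CPM in AKR/J d12 and had no reads in Cav1-null d12. The placental prolactin Prl8a2 stood at 587, 71.8 and 23.8 CPM in AKR/J d12 and had no reads in AKR/J d15, a fall of at least 2416-fold to a floor of 3 counts per library. Of 30 trophoblast and decidua genes listed, 18 were tested, with the same limit of the filter. Of these, 4 were called lower, beside 6.79% of all genes, and Syna was called higher (2.30 ± 0.59). The lower calls included the granzyme Gzmd at 147, 3.36 and 1.63 CPM in AKR/J d12. The lower calls of this list were 1 and 2 in these fits. The fitted medians of the yolk sac and trophoblast lists, -9.19 and -7.86, became -7.31 and -5.57 when the 4 and 6 members with a group at 0 were set to that floor. Ncf4, a subunit of the phagocyte oxidase, was also among the 10 largest negative values, with 63.3, 13.3 and 93.9 CPM in AKR/J d12 and at most 0.839 CPM in the other 9 libraries, the same order of libraries as the erythroid genes. Replicate 1 carried most of the yolk sac signal, with 0.141% of its reads on yolk sac genes against 0.0283% and 0.00396% in replicates 2 and 3.

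Genes of ribosomes and mitochondria were also called lower, in lists that were added after the values were seen. Of 86 cytosolic ribosomal protein genes, 78 were called lower and none higher, with a median of -2.49, beside 6.79% of all genes called lower and 19.3% of the protein-coding genes with the shortest transcripts, described below. Of 81 nuclear genes of the respiratory chain and ATP synthase, 52 were called lower and 1 higher, with a median of -1.58, and of 10 mitochondrially encoded genes 9 were called lower. Hspe1, the mitochondrial co-chaperonin, stood at 755, 194 and 662 CPM in AKR/J d12, at 74.2, 74.4 and 74.1 CPM in AKR/J d15 and between 104 and 122 CPM in Cav1-null (-2.88 ± 0.48, adjusted p = 0.0049). Ribosomal protein genes took 18.3%, 7.72% and 15.4% of reads in AKR/J d12 and 3.37% to 5.20% in the other 9 libraries. Without AKR/J d12 replicates 1 and 3 the ribosomal median was -1.01 with 67 genes called lower, and with the offset for GC content and length it was -1.89 with 74. The respiratory chain list had 34 lower and 8 higher calls and a median of -0.42 without these replicates, and 42 and 2 calls and -1.07 with the offset. The mitochondrially encoded list had 7 lower calls without them and 4 with the offset, with medians of -0.93 and -1.03.

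**Figure D4:**
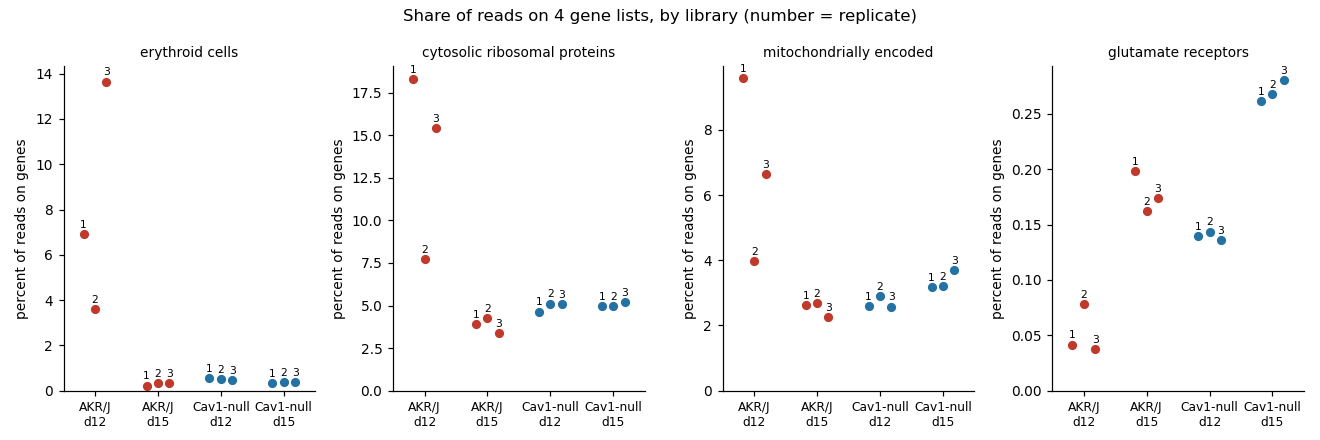
Percent of reads on 4 gene lists in each of the 12 libraries, with the replicate number above each point, AKR/J in red and Cav1-null in blue. The 3 AKR/J d12 libraries lie above all others for erythroid, ribosomal and mitochondrially encoded genes and below all others for glutamate receptors, and replicate 2 lies nearest to the other groups.

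Calls also moved with transcript length. Among protein-coding genes split into 5 equal groups by the length of the canonical transcript, 2.66% of the shortest group were called higher and 19.3% lower, while in the longest group 16.6% were called higher and 2.09% lower. Among the 12 libraries of the fit, the slope was steepest in 2. Against the mean of Cav1-null d12, the median log2 level of the shortest group was 0.42 and 0.30 in AKR/J d12 replicates 1 and 3 and that of the longest group -0.37 and -0.35, while replicate 2 had -0.01 and -0.14. RNA quality was not measured in these files, and its part in the slope was not tested. With the offset for GC content and length, 2351 genes were called (1109 higher and 1242 lower). Of the 3191 calls, 1814 (56.8%) were also made with the offset in the same direction, which is 77.2% of its 2351 calls.

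**Figure D5:**
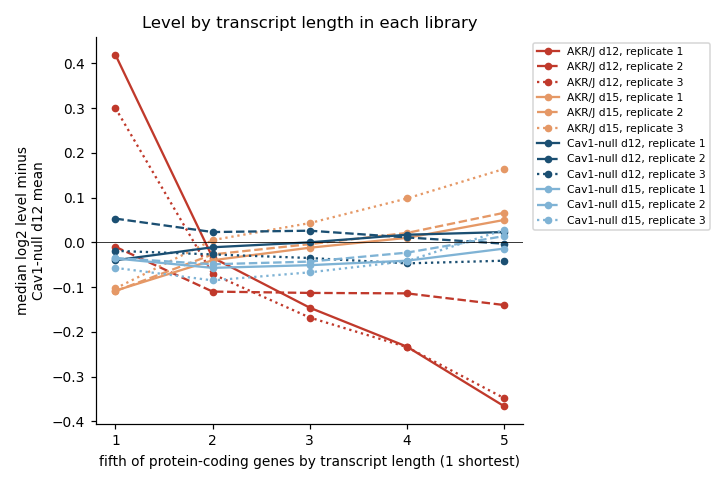
Median log2 level minus the Cav1-null d12 mean (y axis) in 5 equal groups of protein-coding genes from the shortest to the longest transcript (x axis), 1 line per library. AKR/J d12 replicates 1 and 3 run from 0.42 and 0.30 down to -0.37 and -0.35, and the other 10 libraries stay within a narrower band.

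Markers of other tissues were uneven between libraries. Matn1, a cartilage matrix gene, had the largest fitted interaction of its list, but nearly all its reads lay in 1 AKR/J d15 library (30.1 CPM) and 2 Cav1-null d12 libraries (4.58 and 4.66 CPM), and it had none in the 3 Cav1-null d15 libraries, so the size of its fitted value depends on the prior count and is no measure of a fold. Connective tissue and cartilage genes took 0.225% of reads in AKR/J d15 replicate 2, 0.187% in Cav1-null d12 replicate 3, 0.116%, 0.0884% and 0.103% in the 3 AKR/J d12 libraries and 0.0218% to 0.0456% in the other 7. Hoxa2, a hindbrain and spinal cord gene, was the 1 of 16 Hox genes called (6.15 ± 1.82, adjusted p = 0.040) and varied within groups, at 0.689, 0.0612 and 9.52 CPM in Cav1-null d12. Of 47 regional patterning genes 4 were called higher, a share near the 7.86% of all genes, led by the hypothalamic and eye gene Six6 (5.73 ± 0.82, adjusted p = 0.0031), which stood at 0.165, 0.0329 and 0 CPM in AKR/J d12 and at 4.03, 4.62 and 1.96 CPM in Cav1-null d12. The amount of each brain region or neighbouring tissue in a dissected sample was not measured.

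Of 30 hypoxia and glycolysis genes 5 were called higher and 4 lower, beside 7.86% and 6.79% of all genes, with Higd1a, a mitochondrial protein, leading the latter (-1.82 ± 0.36, adjusted p = 0.0086). Without the 3 libraries that departed from the label female the counts of this list were 0 and 1. Of 23 cholesterol genes 2 were called lower, Idi1 (-1.57 ± 0.28) and Fdps (-1.06 ± 0.30), both enzymes of isoprenoid synthesis. In the other lists the counts were 2 of 17 higher for endothelium, led by Pecam1 (1.73 ± 0.33), 1 of 20 higher for skeletal muscle, which was Myh7 (2.34 ± 0.63), 1 of 16 lower for microglia, which was the receptor adaptor Tyrobp (-2.70 ± 0.66), 1 of 16 lower for epidermis and eye, which was the keratin gene Krt10 (-1.66 ± 0.47), and none of 7 for pituitary, where Lhx3 had the lowest p (4.56 ± 1.70, adjusted p = 0.091). Of 23 immediate early and heat shock genes 1 was called higher, the transcription factor gene Jun (0.97 ± 0.24), and Hspe1 lower.

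Finally, the AKR/J change of the next window (d17 over d15) was set against the same Cav1-null change from d12 to d15, which asks whether the 2 strains changed alike when AKR/J is read one time point later. In this fit, which shares AKR/J d15 and both Cav1-null groups with the early interaction, 0 of 21545 genes (0%) passed with edgeR's quasi-likelihood test, 1225 (5.69%) had an unadjusted p under 0.05 (2258 of 22277 without Cav1-null d12 replicate 3), and 0 to 32 genes were called by the other tools and settings tried. A count of 0 at this size does not show that the changes were equal. The genes called higher in the early interaction had a median of -0.09 in this later comparison and the genes called lower 0.16, against -0.03 over all genes. These genes were chosen on a contrast in which AKR/J d15 has the opposite sign, and the AKR/J window is 2 days long against 3 in Cav1-null. Grm5 had 3.18 in the early interaction and -0.78 (adjusted p = 0.38) in the later one.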

How the data were processed

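RNA-seq was performed on whole fetal brains, with 3 libraries for each of 3 strains on each of 3 gestational days, grouped here by their sample labels. The count table holds raw read counts per Ensembl gene as deposited by the authors, without normalisation. The authors checked reads with FastQC, trimmed them with cutadapt and fastp, and mapped them to GRCm39 with STAR. The counting tool, its use of strand and its treatment of multi-mapped reads are not given in the sources used here, so reads of overlapping, antisense and near-identical genes may be split or shared. A table of splice junction reads was not used.

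The 12 libraries were fitted in 1 model of group means with edgeR 4.0.16 (R 4.3.3) after filterByExpr and TMM scaling, and each contrast was tested two-sided by quasi-likelihood with Benjamini-Hochberg adjustment at 0.05. Standard errors are the log2 value over the square root of F. Each library is a separate brain, but litters were not given. No 2 libraries of a group held identical counts. The biological coefficient of variation was 29.5%. On simulated counts for the early interaction over 21774 genes, with 200 genes planted, 8% of log2 changes of 1 and 87% of log2 changes of 2 were recovered, with 5 false calls.

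Genes were placed by GENCODE M39, which matched 21626 of the genes tested. Members and lists were chosen with earlier results of these data known. Named genes were, among calls whose log2 CPM averaged 3 or more, the 10 largest in each direction and up to 5 in each orientation with opposite called changes, the called member of each list with the largest absolute interaction (or the smallest p), and Cav1. Other members are named as examples. Cytosolic ribosomal, respiratory chain and mitochondrially encoded lists and the length analysis were added after values were seen. Alternatives covered scaling, filtering, thinning, limma 3.58.1 (voom), DESeq2 1.42.0, a replicate block and left-out libraries. An offset for GC content and length, and fits without the libraries that stood apart, were added after seeing the data. A few members of the lists are counted but not reported here by name.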

Additional observations from a re-analysis of the deposited data

Results flagged for a closer look

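The effect of gestational day differed between AKR/J and Cav1-null, tested as the interaction term of the quasi-likelihood fit, in 3191 genes, and 51 of the 53 named genes were among them. All values below are early interactions on the log2 scale.

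Of the genes with a positive value, 27 were named. Those above 2 were Matn1 18.63, Tmem72 8.25, Hoxa2 6.15, Six6 5.73, Kcne2 4.12, Kcnk9 3.44, Slc15a2 3.44, Aldoc 3.23, Grm5 3.18, Atp2b3 3.08, Ablim3 2.95, Sprn 2.92, Tmem130 2.85, Rlbp1 2.83, Sv2c 2.69, Myh7 2.34, Camk2b 2.23, Dkk3 2.10 and Foxj1 2.02. Those below 2 were Scn3b 1.96, Lbh 1.90, Slc32a1 1.77, Pecam1 1.73, Dcx 1.67, Magel2 1.61, Polr2b 1.60 and Cnp 1.18. The values of Matn1, Tmem72 and Six6 depend on the prior count, since each had a group at or near 0.

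Of the named genes with a negative value, those above -4 were Slc2a3 -1.38, Idi1 -1.57, Krt10 -1.66, Ccne2 -1.78, Higd1a -1.82, Lin28a -1.97, Id2 -2.08, Fabp7 -2.26, Sptb -2.45, Tyrobp -2.70, Hspe1 -2.88 and Hbb-bs -3.78. Those below -4 were Gm10800 -6.73, Ncf4 -6.88, Cyp4b1-ps2 -7.02, Apoa2 -7.24, Erv3 -9.90, Apoa1 -9.92, Gzmd -10.06, Apob -10.40, Afp -11.04, Fgg -13.78 and Prl8a2 -16.93. Prl8a2 and Fgg had groups at 0, and Erv3 and Gzmd had AKR/J d12 libraries of 151, 36.9 and 12.5 CPM and of 147, 3.36 and 1.63 CPM.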

How the results depend on the processing

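The early interaction kept within 1.5 times its 3191 calls under the other scalings, tests, filters, thinning and the model of all 27 libraries, where it gave 2610 (limma voom, 60.7% of them higher) to 4631 calls, and under the offset for GC content and length. It gave 1698 calls with the offset and the replicate block, 192 without the 3 libraries that departed from the label female, and 1581 to 7275 with 1 library left out. The cause was not tested. An absolute log2 value of at least 1 gave 2253 calls (42.1% higher), and for the AKR/J change 4864, the Cav1-null change 1102, d12 3854 and d15 645. Library sizes alone gave 77.2% higher calls, against 53.7%, and 1142 calls for the Cav1-null change and 578 on d15. DESeq2 gave 3284 and 1989 for these, the likelihood ratio test 1751 on d15, and the model of all 27 libraries 1586 on d15. Without AKR/J d12 replicates 1 and 3 the AKR/J change, Cav1-null change, d12 and d15 had 5112, 4356, 4273 and 2840 calls, and without the 3 libraries that departed from the label 4844, 1160, 3695 and 492. With 1 library left out, the Cav1-null change had 886 to 3949 calls and the d15 difference 452 to 2501. The later comparison had 1 call with library sizes alone, 32 with DESeq2, 18 without a filter, 23 with the likelihood ratio test and 0 to 5 with 1 library left out.

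Same-numbered libraries of different groups had a median correlation of deviations of -0.05 (3 of 18 above 0.1). Libraries with different numbers had 0.031 (11 of 36 above 0.1). With so few libraries a group, these values cannot show whether same-numbered samples shared a batch. With the replicate block 2211 genes were called. Of 51 named calls, 13 were made under all 29 settings (among them Ablim3, Aldoc, Atp2b3, Camk2b, Grm5, Lbh, Magel2, Scn3b, Slc15a2, Sprn, Sptb and Tmem130), none changed sign, and Lin28a (16 settings), Krt10 (15), Erv3 and Hoxa2 (14 each) lost their call most often. In simulated counts with 200 planted genes, 8% of log2 changes of 1 were recovered. The data held 3191 calls, of which 2253 had an absolute log2 value of at least 1. The share recovered therefore does not carry over to these data.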
